A study of Homo sapiens with 16 samples.

Results

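The CM-1758 response of J82 cells was set against that of TCCSUP cells. Both are established human bladder cancer cell lines. The members are 8 of the 16 RNA-seq libraries of the series, chosen by their labels: the 2 control and the 2 CM-1758 libraries of each line. The quantity of interest is a difference of differences, the log2 change with CM-1758 in J82 minus the log2 change with CM-1758 in TCCSUP. CM-1758 is an inhibitor of histone deacetylases, and the study used it to ask how these enzymes shape gene expression in bladder cancer cells. Cells of WT genotype received the compound at the half-maximal inhibitory concentration of their own line for 48 h, or 0.01% DMSO as vehicle. The vehicle is as listed for the control samples, whereas the study's captions for these data call the control cells untreated. The CM-1758 concentration, set for each line, differed between the lines. J82 was also grown in DMEM GlutaMAX and TCCSUP in EMEM, so the effects of line, dose and medium cannot be told apart. Each library came from 1 of 2 independent experiments, and the lines stand for 1 culture model each.

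Histone deacetylases remove acetyl groups from the lysines of histone tails, and their inhibition leaves chromatin more acetylated and many silent genes open to transcription. Inhibitors of this class are known to raise cell cycle inhibitors such as CDKN1A and to bring out genes of other tissues. Some cancer cells transcribe interferon-stimulated genes without added interferon. Many of them carry a short DNA element called ISRE in their promoters.

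Total counts ran from 28723648 to 32537104 in the J82 libraries and from 22506431 to 28809324 in the TCCSUP libraries. Replicates of a group correlated with Pearson's r between 0.983 and 0.989 over log2 CPM (counts scaled to library size, here with the trimmed mean of M values, TMM). The lines were distinct in the data: 16 genes had at least 10 CPM in every J82 library and at most 3 counts in every TCCSUP library, and 12 genes had the reverse. A set of small noncoding RNA genes took 12.1% to 13.2% of the counts in the controls of both lines, 13.2% and 16% in treated J82 and 19.3% and 21.3% in treated TCCSUP. Scaling by library size alone instead of TMM moved the median log2 change of all genes by 0.145 in J82 and 0.311 in TCCSUP and the median difference by -0.17. Changes below are relative to the TMM scale. RNA was taken from whole cultures, so fewer cells of a kind and less RNA per cell cannot be told apart.

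Both lines responded with more genes higher than lower. Of 21297 genes tested, a gene was called when its log2 change was above 2 or below -2 with an adjusted p under 0.01, and it passed the test when the adjusted p alone was under 0.01. In J82, 1876 genes were called higher (8.81% of those tested) and 265 lower (1.24%). In TCCSUP, 3028 were called higher (14.2%) and 704 lower (3.31%). The difference between both responses was called for 1190 genes. The log2 change was the higher in J82 for 648 (3.04%) and the higher in TCCSUP for 542 (2.54%), whether through a rise or a fall. The difference passed the test for 2682 genes (12.6%).

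The lines shared 1112 genes called higher, which were 59.3% of the J82 genes and 36.7% of the TCCSUP genes. They shared 121 genes called lower, 45.7% and 17.2% of each list. The J82 and TCCSUP responses rest on separate libraries, so no control sample entered both sides of this overlap. Of all genes called in at least 1 line, 3666 of 4601 (79.7%) had log2 changes of the same sign, against 14557 of 21297 tested genes (68.4%). Shared calls did not always have equal size. Among the 1112 genes higher in both lines the difference passed the test for 121 (10.9%, with a background of 12.6%), and in 90 of these the TCCSUP rise was the larger. Only 24 of the 1112 had a 95% interval of the difference that lay between -1 and 1, against 26.7% of all tested genes. For most shared genes the data therefore show neither a difference nor an equal response.

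**Figure D1:**
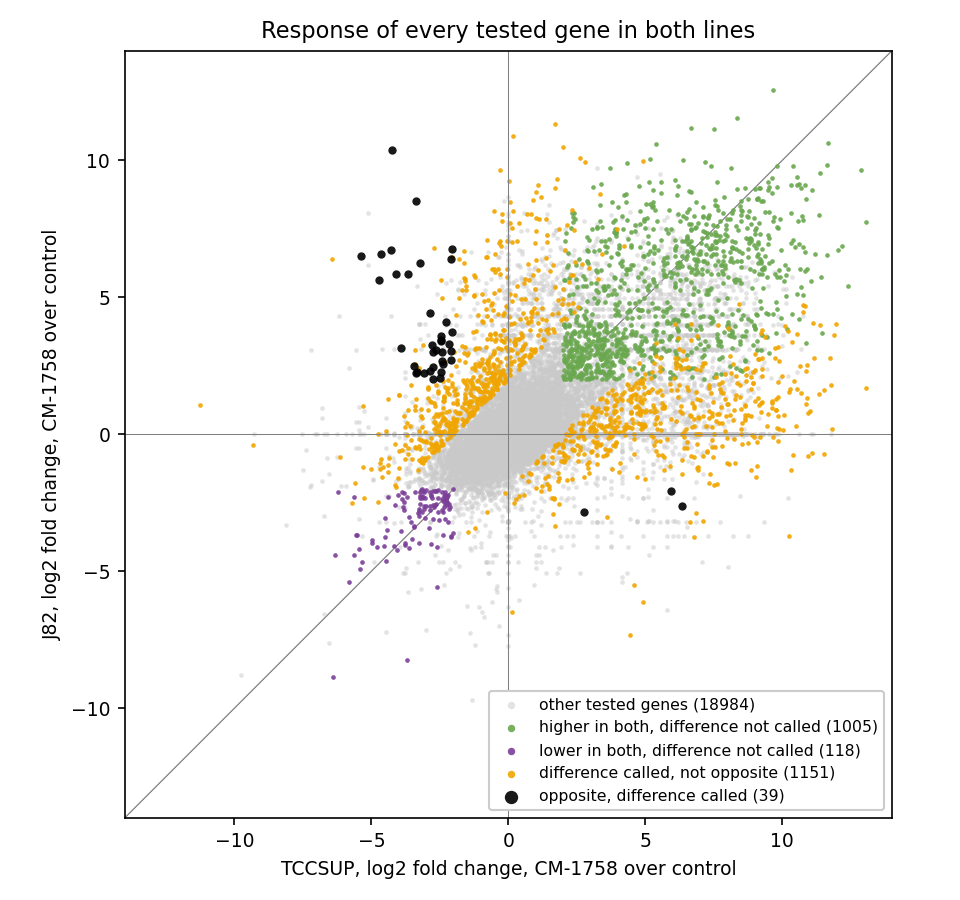
Each point is 1 of the 21297 tested genes, placed by its log2 fold change with CM-1758 in TCCSUP (horizontal axis) and in J82 (vertical axis), with the diagonal where both are equal. Colours mark genes called higher or lower in both lines with no called difference, genes with a called difference, and opposite genes. Genes called higher in both lines (1112 in all) fill the upper right, and the lower left is sparser (121).

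The J82 and TCCSUP pair can be placed among the 6 pairs of lines in the series, as a description, since pairs that share a line share its libraries. Across genes, which are not independent replicates, the log2 changes of J82 and TCCSUP had a Pearson r of 0.531, and the other pairs ranged from 0.391 to 0.488. Over the 10648 genes above the median expression, r was 0.583 for J82 and TCCSUP, the highest of the 6. Genes with a called difference numbered 1190 for this pair, 1281 for J82 and RT112, and 1481 to 1839 for the others. The order was not the same on every measure. The median absolute difference was 0.719 for J82 and TCCSUP and 0.691 for J82 and RT112, and the genes passing the test numbered 2682 and 2698, so J82 was about as close to RT112 by these counts. TCCSUP and RT112 shared more genes called higher (1295) than J82 and TCCSUP did.

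**Figure D2:**
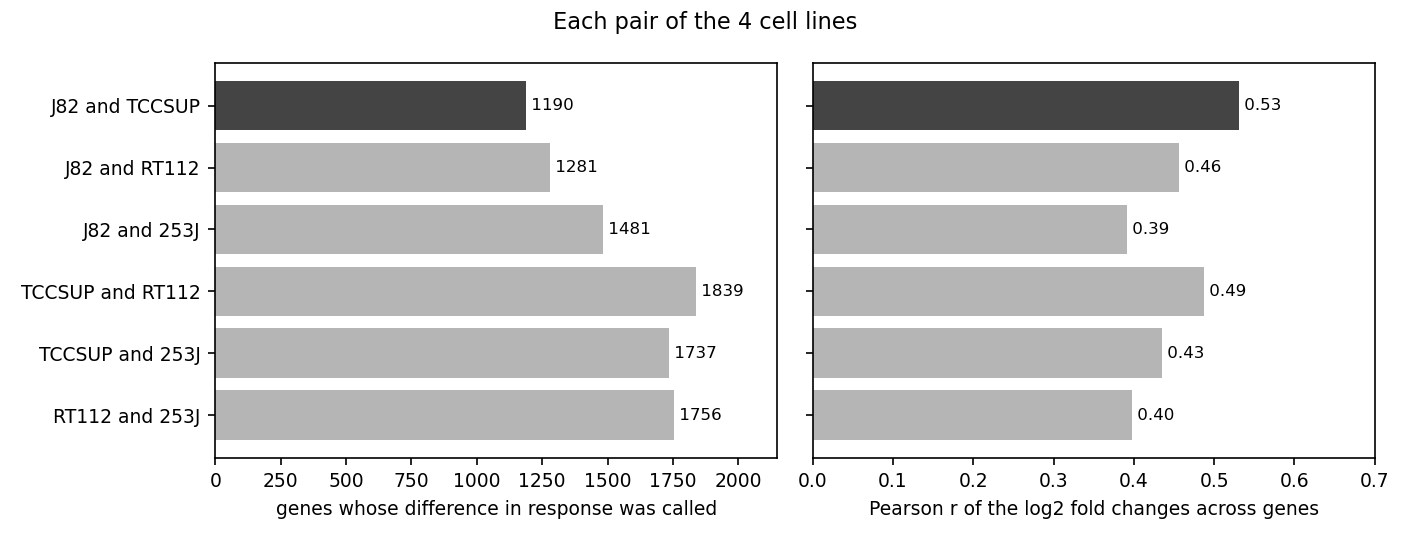
Bars give, for each of the 6 pairs of cell lines, the number of genes whose response difference was called (left) and the Pearson r across genes of both log2 fold changes (right). J82 and TCCSUP had 1190 called genes and r of 0.531, the lowest count and the highest r of the 6 pairs.

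Of the 1112 genes higher in both lines, 662 were also called higher in RT112, 480 in 253J and 307 (27.6%) in neither. The mean response of J82 and TCCSUP exceeded the mean of the other lines, by the same call, for 286 of them (25.7%, with a background of 2.88% of tested genes). Choosing genes that are high in J82 and TCCSUP favours this result, so the share is a description. Of the 121 lower genes, 50 were called lower in neither other line, and 30 (24.8%, background 2.42%) were below the other lines by the test.

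Many of the genes higher in both lines started near silence. In 344 of the 1112 (30.9%), all 4 control libraries of J82 and TCCSUP held at most 3 counts, as against 2492 of all tested genes (11.7%). Choosing genes called higher favours low starting counts, and a gene near 0 can hardly be called lower. The share is therefore a description. Other shared genes started low but above that count. UNC13A, which primes synaptic vesicles for release, was at 0.342 and 0.436 CPM in the J82 controls and 27.1 and 34.3 with CM-1758, and went from 0.435 and 0.612 to 40.9 and 39.1 in TCCSUP. Every treated library was far above every control, and the log2 changes of 6.28 ± 0.32 and 6.24 ± 0.31 (fitted value ± SE throughout) differed by 0.04 ± 0.47, with a 95% interval from -0.97 to 1.05. The synaptic vesicle protein SYP, named after its values were seen, moved from 1.52 and 0.836 to 46.1 and 54.9 CPM in J82 and from 0.831 and 1.38 to 50.8 and 41.6 CPM in TCCSUP. Its difference of 0.04 ± 0.39 had an interval from -0.78 to 0.87, which lies within 1 of 0.

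Other shared genes rose with unequal margins. DHRS2, a short-chain dehydrogenase that deacetylase inhibitors are known to induce, was at 0.911 and 0.545 CPM in J82 controls and 96.3 and 144 with CM-1758. In TCCSUP it was at 4.91 and 3.18 and then 274 and 189 CPM. The log2 changes were 7.36 ± 0.33 and 5.84 ± 0.28, and their difference of 1.52 ± 0.42 missed the threshold (adjusted p = 0.0162). ZCCHC12, a zinc finger protein, reached 8.05 and 13 CPM in treated J82 and 48 and 38.9 in treated TCCSUP from at most 0.191 CPM in any control. CRYM, which binds thyroid hormone in the cytosol, rose from at most 0.191 CPM to 4.51 and 5.92 in J82 and 9.95 and 11.1 in TCCSUP. The treated libraries of ZCCHC12 and CRYM were all lower in J82 than in TCCSUP, but the differences, -1.98 ± 1.43 and -0.65 ± 1.32, had adjusted p of 0.383 and 0.848.

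PMEL, a structural protein of melanosomes, rose from 0.76 and 0.509 to 27.3 and 50.9 CPM in J82 and from 0.91 and 0.766 to 120.1 and 82.4 in TCCSUP. BAIAP3, which acts in dense-core vesicle release, rose from 0.38 and 0.109 to 14.1 and 15.3 and from 0.791 and 0.0766 to 27.9 and 28 CPM. Neither difference passed (adjusted p of 0.298 and 1). ANKRD1, a target of the YAP coactivator that was named after its values were seen, was already expressed and rose from 107 and 70.4 to 1217 and 1221 CPM in J82 and from 28.6 and 38 to 673 and 854 in TCCSUP. Its log2 changes were 3.78 ± 0.25 and 4.52 ± 0.26.

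Interferon-stimulated genes fell in both lines. Of 52 tested genes of the interferon alpha response, 51 fell in J82 and none rose (passing the test, background 13.3% lower), and 44 fell and 1 rose in TCCSUP (background 17.2% lower). All 44 that fell in TCCSUP also fell in J82. The median log2 change of the list was -2.72 in J82 and -2.01 in TCCSUP, against 0.047 and 0.20 over all genes, and 25 of its genes were among the 121 called lower in both lines (20.7%).

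MX1, a GTPase that blocks viral replication, was at 1174 and 1106 CPM in the J82 controls and 76.5 and 16.8 after treatment, and at 330.4 and 262 and then 13.8 and 13.3 CPM in TCCSUP. IFIT3, which acts with other IFIT proteins against viral RNA, fell from 393 and 335 to 25.2 and 3.62 CPM in J82 and from 183 and 184 to 4.42 and 4.6 in TCCSUP. OAS2, an oligoadenylate synthetase that activates RNase L, fell from 372 and 275 to 18 and 3.42 and from 52.7 and 42.1 to 1.09 and 1.14 CPM. Treated and control libraries did not overlap for any of these genes in either line, and their differences of -0.16 ± 0.61, 0.68 ± 0.72 and 0.49 ± 0.73 had adjusted p of 0.977, 0.585 and 0.745.

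RSAD2, which encodes the antiviral enzyme viperin, fell from 350.3 and 209.8 to 24.1 and 2.27 CPM in J82 and from 176 and 122 to 3.07 and 2.95 in TCCSUP. SAMD9L, an interferon-induced inhibitor of translation, fell from 316 and 224 to 20.2 and 5.52 and from 129 and 90.6 to 0.973 and 1.73 CPM. SLC15A3, a lysosomal transporter, fell from 66.4 and 35 to 2.36 and 0.0677 and from 21.3 and 18.4 to 0.486 and 0.197 CPM. The SAMD9L fall was the larger in TCCSUP by 1.95 ± 0.66, short of the threshold (adjusted p = 0.0479), and the differences of RSAD2 and SLC15A3, 1.22 ± 0.86 and 0.44 ± 1.12, had adjusted p of 0.367 and 0.906.

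In each of these J82 genes the treated replicate 3 was far below the treated replicate 1, while the treated TCCSUP libraries lay close together. Without treated replicate 1 the J82 median of the list was -3.53, and without treated replicate 3 it was -2.33. The direction was the same, and the number of genes called lower in J82 ran from 159 without replicate 3 to 331 without replicate 1.

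Within this shared fall, the difference passed the test for 12 of the 52 genes: 11 had the lower value in J82 (background 5.02%) and 1 in TCCSUP (background 7.57% higher in J82). IFIT2 was the exception and fell further in TCCSUP, from 131 and 120.1 to 4.68 and 4.52 CPM, than in J82, from 164 and 106 to 31.2 and 17.2 CPM (difference 2.30 ± 0.42, adjusted p = 0.0012). ISG15, a ubiquitin-like protein joined to other proteins, went from 1062 and 1029 to 130.4 and 64.8 CPM in J82 and from 144 and 138 to 69.2 and 53.2 in TCCSUP (difference -2.22 ± 0.36, adjusted p = 0.000418). The J82 controls held 7.43 times the mean TCCSUP control level, and the treated levels of the lines overlapped.

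SP110, a nuclear body protein, fell in J82 from 36.7 and 29.5 to 9.63 and 3.32 CPM, whereas TCCSUP held 11.8 and 12.6 in controls and 11.7 and 17.7 after treatment, an overlapping range (difference -2.63 ± 0.47, adjusted p = 0.00104). ISG15 was named after its values were seen.

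The promoters of these genes were read for the ISRE core, GAAA followed after any 2 bases by GAAA, on either strand, in RefSeq windows from 250 bases before to 50 bases after each start (GRCh38.p14, which is not the build named in the submitters' notes, so windows were matched by symbol). Windows were found for 14723 of the 21297 tested genes. The core was in 3.05% of the 20860 windows of all tested genes, in 62.3% of the 53 windows of the interferon list and in 28.5% of the 137 windows of genes lower in both lines. Leaving out the interferon list, it was in 19.4% of 108 windows of genes lower in both lines. Of 1110 windows of genes higher in both lines, 1.98% held it. A match is a description of letters and not of a bound site. Some of these sites follow because the genes that hold them fell in both lines, with the core in capitals, 5′ to 3′ on the gene's strand.
ISG15 (chr1:1013380-1013409): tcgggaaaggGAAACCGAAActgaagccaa
IFIT3 (chr10:89332425-89332454): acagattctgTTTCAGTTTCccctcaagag
RSAD2 (chr2:6877622-6877651): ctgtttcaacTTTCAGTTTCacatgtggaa
PARP14 (chr3:122680800-122680829): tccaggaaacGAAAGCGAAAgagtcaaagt
The IFIT3 and RSAD2 cores lie on the opposite strand, and the ISG15 core overlaps another match that starts 6 bases before it. The last bases of the cores lie 98, 85, 136 and 20 bases before the start of their genes. PARP14, an ADP-ribosyltransferase induced by interferon, fell with log2 changes of -3.40 ± 0.35 in J82 and -3.46 ± 0.35 in TCCSUP.

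Of 31 antigen presentation genes tested, 17 fell (54.8%, background 13.3%) and 6 rose (19.4%, background 17.4%) in J82, and 20 fell (64.5%, background 17.2%) and 6 rose (19.4%, background 23.7%) in TCCSUP, with all 17 of the J82 falls shared. The falls held class I genes, peptide transporters and immunoproteasome subunits. Class II genes, counted after their values were seen, made up 5 of the 6 rises in each line, out of 8 tested. B2M, the light chain of class I molecules, fell from 4796 and 3644 to 2989 and 2062 CPM in J82 and from 3453 and 2875 to 989 and 743 in TCCSUP. The fall was the larger in TCCSUP (difference 1.13 ± 0.28, adjusted p = 0.00954), but this difference did not pass under 9 alternatives. HLA-DRA, a class II chain named after its values were seen, rose from 5.54 and 1.96 to 25.5 and 21.1 CPM in J82 and from 0.237 and 0.345 to 5.31 and 5.55 in TCCSUP. Its difference of -1.56 ± 0.70 did not pass (adjusted p = 0.133).

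HLA-F, a nonclassical class I gene, was the widest difference in the list. It was at 499.7 and 243 CPM in J82 controls and 238 and 116 after treatment, and at 2.06 and 2.79 and then 16.5 and 18.9 CPM in TCCSUP (difference -3.93 ± 0.49, adjusted p = 4.99e-05). In J82 the highest treated library lay just below the lowest control, and the change of -1.07 ± 0.31 missed the threshold (adjusted p = 0.0116). The treated TCCSUP libraries lay well above theirs. HLA genes are near-identical in part, so reads may be shared among them.

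Most mitosis genes fell in both lines, with the lower median in TCCSUP. All 40 tested mitosis genes fell in TCCSUP (background 17.2%), and 33 fell in J82 (82.5%, background 13.3%). The medians were -2.34 and -1.12, and the difference passed for 15 of the 40, each time with the deeper fall in TCCSUP (37.5% of the list, background 7.57%). DLGAP5, a spindle protein, went from 189 and 197 to 24.5 and 25.9 CPM in TCCSUP and from 119 and 169 to 101 and 62.9 in J82, the widest such difference (2.12 ± 0.31, adjusted p = 0.000175). TOP2A, the topoisomerase that untangles chromosomes, fell from 773 and 738 to 138 and 128 CPM in TCCSUP and from 653 and 906 to 473 and 304 in J82. CENPF, a kinetochore protein, fell from 828 and 696 to 141 and 180.5 and from 736 and 716 to 473 and 282 CPM. For TOP2A and CENPF, named after their values were seen, the differences were 1.5 ± 0.31 and 1.30 ± 0.28 (adjusted p of 0.00266 and 0.00377). TTK, a spindle checkpoint kinase, had the smallest difference that passed, 1.10 ± 0.26 (adjusted p = 0.00706). The differences of TTK, CENPF and TOP2A did not pass under 8, 4 and 3 of the alternative settings, with the direction kept.

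DNA replication genes fell more often in J82. Of 50 tested, 29 fell (58%, background 13.3%) and 2 rose in J82, and 13 fell (26%, background 17.2%) and 4 rose in TCCSUP. The medians were -0.73 and -0.23, and with library size alone the TCCSUP median was 0.080, so its direction rests on the scaling. The difference passed for 7 of 50 genes (14%, background 12.6%), all lower in J82 (background 5.02%). MCM2, a subunit of the replicative helicase, fell from 1029 and 1241 to 716 and 777 CPM in J82 and was at 102 and 113 and then 152 and 162 in TCCSUP. Its change in TCCSUP, 0.54 ± 0.17, missed the threshold (adjusted p = 0.015), and the difference was -1.15 ± 0.24 (adjusted p = 0.00324). MCM5, another subunit, named after its values were seen, fell from 121 and 140.3 to 68.9 and 65.1 CPM in J82 and stood at 104 and 112 and then 99.8 and 109 in TCCSUP (difference -0.92 ± 0.22, adjusted p = 0.00848). The clamp loader subunit RFC4 had the narrowest of the 7 differences, -0.71 ± 0.18 (adjusted p = 0.00944). The differences of MCM2, MCM5 and RFC4 did not pass under 6, 10 and 12 of the alternative settings, with the direction kept.

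An E2F site, TTTCCCGC or TTTGGCGC on either strand, was in 35.6% of the 59 windows of the replication list and in 3% of all windows. It was in 3.65% of the windows of genes lower in both lines and 1.8% of those higher in both. Sites of a helicase subunit and of the sliding clamp are shown with the E2F letters in capitals, as examples of the replication genes that carry it.
MCM6 (chr2:135876516-135876543): attggtcaggTTTGGCGCgaaatctcca
PCNA (chr20:5126664-5126691): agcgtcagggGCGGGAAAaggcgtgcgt
MCM6, also of the helicase, had log2 changes of 0.20 ± 0.16 in J82 and 0.48 ± 0.16 in TCCSUP. PCNA, the sliding clamp, had -0.57 ± 0.19 and -0.16 ± 0.18, and none of these changes passed the test.

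Reversals were few among the 1190 genes with a called difference. Of the 648 higher in J82, 268 were called higher in J82 alone, 174 lower in TCCSUP alone, 141 in neither line, 26 higher in both but more in J82, 3 lower in both but more in TCCSUP, and 36 higher in J82 and lower in TCCSUP. Of the 542 lower in J82, 406 were called higher in TCCSUP alone, 81 higher in both but more in TCCSUP, 34 in neither, 18 lower in J82 alone and 3 lower in J82 and higher in TCCSUP. A call in 1 line alone did not stand for a difference: of 1916 genes called higher in TCCSUP alone the difference passed for 454 (23.7%), and of 764 called higher in J82 alone for 359 (47%).

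Starting levels moved with these differences. Of the 268 genes called higher in J82 alone, 177 (66%) had a TCCSUP control level at or above the treated J82 level. Of the 406 called higher in TCCSUP alone, 215 (53%) had a J82 control level at or above the treated TCCSUP level. Among the 174 called lower in TCCSUP alone, 146 (83.9%) started higher in TCCSUP, and all 18 called lower in J82 alone started higher in J82. The control libraries enter both the starting level and the change, so part of this is arithmetic, and its part in the differences was not tested.

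SULF2, which trims heparan sulfate outside the cell, had the widest difference among the genes of the naming rule that were higher in J82. It rose from 0.418 and 0.145 to 15.4 and 14.5 CPM in J82 and fell from 27.3 and 23.7 to 8.05 and 8.42 in TCCSUP. The log2 changes of 5.72 ± 0.29 and -1.63 ± 0.19 differed by 7.35 ± 0.36 (adjusted p = 1.97e-08), and the treated levels of the lines were closer to each other than the control levels. MAMDC2, a secreted proteoglycan, rose from 9.27 and 9.59 to 351 and 452 CPM in J82 and fell from 19.9 and 15.3 to 5.95 and 6.1 in TCCSUP (difference 6.96 ± 0.28, adjusted p = 3.79e-09). The controls of the lines lay close together compared with the treated libraries.

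FSTL5, a secreted protein of the follistatin family, rose in both lines, from 0.152 and 0.182 to 34.9 and 45.1 CPM in J82 and from 4.67 and 5.32 to 12 and 13.7 in TCCSUP (difference 6.50 ± 0.42, adjusted p = 2.96e-07). CA5B, a mitochondrial carbonic anhydrase, rose from 0.911 and 0 to 20.5 and 31 CPM in J82 and stood at 5.82 and 6.47 and then 0.861 and 4.29 in TCCSUP. Its difference of 7.09 ± 1.64 was near the threshold (adjusted p = 0.00684) and did not pass the test under 8 alternatives.

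The naming rule asked for more than 3 counts in at least 1 library of each group, so the genes it gave toward TCCSUP were expressed in J82 and wider fitted values of silent genes were left out. TEX15, a germ cell protein of meiosis, was at 19.98 and 21.7 CPM and then 36.3 and 32.5 in J82 and rose from 0 and 0.153 to 23.5 and 21.1 in TCCSUP (difference -7.36 ± 0.50, adjusted p = 3.98e-07). SPATA13, a guanine nucleotide exchange factor, stood at 38.3 and 33.3 and 37.8 and 35 CPM in J82 and rose from 0.356 and 0.23 to 35.2 and 37.2 in TCCSUP (difference -6.91 ± 0.29, adjusted p = 3.79e-09). All 4 J82 libraries and both treated TCCSUP libraries of SPATA13 lay between 33.3 and 38.3 CPM.

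OGDHL, a mitochondrial dehydrogenase subunit, was at 21.2 and 20.9 and then 32.9 and 37.9 CPM in J82 and rose from 0 and 0.23 to 26.3 and 21.4 in TCCSUP (difference -6.87 ± 0.47). ADGRV1, a giant adhesion receptor, rose in both lines to like levels, from 24.4 and 20.9 to 108 and 94.9 CPM in J82 and from 0.356 and 0.0766 to 90.9 and 85.7 in TCCSUP (difference -6.50 ± 0.39). SEMA4D, a membrane semaphorin, was at 34.3 and 19.7 and 19.5 and 12.6 CPM in J82, with a change of -0.75 ± 0.25 that did not pass, and rose from 0.158 and 0.306 to 12 and 11.1 in TCCSUP. PCDHAC2, a protocadherin, had a difference of -6.62 ± 0.75, but it shares exons with its gene cluster and its counts are uncertain.

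Silence in 1 line limited what the count model could say. Of the 3028 genes called higher in TCCSUP, 529 (17.5%) had at most 3 counts in every J82 library, and the difference passed for 3 of them. For 318 of the 529, all J82 libraries were at 0, from which a response cannot be estimated. For the rest it rests on a few counts. The same limit held for 45 of the 1876 J82 genes (2.4%). With limma-trend on log2 CPM, an alternative added after seeing the data, the difference was called for 445 of the 529 and 36 of the 45. These genes were chosen for a call in 1 line and near silence in the other. Those differences therefore largely repeat the choice. CRH, the hypothalamic releasing hormone, had 0 counts in all 4 J82 libraries and in both TCCSUP controls and 14.6 and 17.8 CPM in treated TCCSUP, at least 139-fold higher against a floor of 3 counts. TDRD9, a helicase of the germ line, reached 9.73 and 9.56 CPM (at least 82.6-fold) in the same way. TOPAZ1, another germ line gene, reached 7.67 and 8.06 CPM in treated TCCSUP against 0.0716 and 0.102 in treated J82. TUBA3E, a tubulin with near-identical copies whose reads may be split, reached 10.4 and 9.87 CPM. By the same rule 87 genes were on in treated TCCSUP alone and 2 in treated J82 alone: TMEM108, a neuronal membrane protein, at 0.931 and 1.52 CPM, and LMX1B, a homeobox factor, at 0.752 and 2.94 CPM.

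Called changes in opposite directions were rare, with 36 genes higher in J82 and lower in TCCSUP and 3 the other way. For 35 of the 36 the TCCSUP control level was above the J82 control level. PTPRQ, a receptor phosphatase known from inner ear hair cells, rose from 1.29 and 0.472 to 7.8 and 8.02 CPM in J82 and fell from 21.8 and 25.3 to 1.05 and 2.05 in TCCSUP (difference 7.09 ± 0.77, adjusted p = 1.96e-05). CNN1, the smooth muscle protein calponin, rose from 0.798 and 1.2 to 6.41 and 9.54 and fell from 62.5 and 71.4 to 11.3 and 8.77 CPM (difference 5.72 ± 0.37). ITGA11, a collagen-binding integrin, rose from 0.494 and 0.145 to 2.79 and 2.61 and fell from 163 and 142 to 26.5 and 21.9 CPM (difference 5.73 ± 0.41). The treated levels of PTPRQ and CNN1 approached each other, and TCCSUP remained far above J82 for ITGA11.

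TENM2, a teneurin of cell adhesion, rose from 2.32 and 1.16 to 11.4 and 8.36 CPM in J82 and fell from 492 and 476 to 38.8 and 51 in TCCSUP (difference 5.94 ± 0.42). NEGR1, a neuronal adhesion molecule named as the exception in starting level, rose from 2.24 and 4.98 to 19.9 and 22.5 CPM and fell from 2.06 and 3.75 to 0.674 and 0.433 (difference 4.93 ± 0.59). UGT1A1, a glucuronosyltransferase, had a difference of 6.06 ± 0.73, but 5 UGT1A genes in this group share exons, so they count as 1 uncertain locus. The count of 36 fell to 20 without J82 control replicate 3.

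The 3 genes that fell in J82 and rose in TCCSUP were H19, WT1 and H2BP2. H19, an imprinted noncoding RNA, went from 11.9 and 21.2 to 3.87 and 3.99 CPM in J82 and from 0.158 and 0.191 to 15.6 and 6.37 in TCCSUP (difference -8.01 ± 0.74, adjusted p = 3.01e-06). WT1, a zinc finger transcription factor, went from 2.05 and 2.69 to 0.501 and 0.271 CPM in J82 and from 0 in both TCCSUP controls to 0.337 and 0.393, at least 3.13-fold higher. H2BP2, a histone H2B pseudogene whose reads may come from other H2B genes, went from 1.37 and 0.691 to 0.179 and 0.102 and from 0.198 and 0.153 to 1.12 and 1.34 CPM. Levels of WT1 and H2BP2 were at most 2.69 CPM in every library.

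Collagen and matrix genes showed the broadest difference of any list. Of 56 tested, 36 fell (64.3%, background 17.2%) and 4 rose (7.14%, background 23.7%) in TCCSUP. In J82, 9 fell (16.1%, background 13.3%) and 11 rose (19.6%, background 17.4%), both near the background. The difference passed for 35, with 32 higher in J82 (57.1% of the list, background 7.57%) and 3 lower. The medians were -1.66 in TCCSUP and 0.26 in J82. The J82 median was -0.089 without treated replicate 1 and -0.056 without control replicate 3, so its sign rests on single libraries, while the median difference was 1.68 and 2.49 without J82 treated replicates 1 and 3.

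COL1A1, a chain of type I collagen, fell from 895 and 1080 to 100.2 and 97.8 CPM in TCCSUP and rose from 2.89 and 1.45 to 11.3 and 9.58 in J82 (difference 5.59 ± 0.31, adjusted p = 7.19e-08). TCCSUP remained above J82 by a wide margin. COL3A1, of type III collagen, fell from 632 and 683 to 10.1 and 8.34 CPM in TCCSUP and less so in J82, from 2978 and 3177 to 1767 and 1739 (difference 5.34 ± 0.26, adjusted p = 6.34e-08). J82 was the higher line for COL3A1 before and after treatment. COL5A1, of type V collagen, went against the list: it rose from 0.356 and 0.153 to 3.48 and 4.29 CPM in TCCSUP and was at 323 and 199.6 and then 251 and 171 in J82 (difference -4.22 ± 0.59, adjusted p = 0.000124).

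FN1, which encodes fibronectin, rose from 1200 and 885 to 3765 and 3454 CPM in J82 and fell from 4598 and 3869 to 1890 and 1528 in TCCSUP, so the order of the lines was exchanged (difference 3.10 ± 0.25, adjusted p = 7.6e-07). THBS1, which encodes thrombospondin, rose from 919 and 517 to 1697 and 1593 CPM in J82 and fell from 5591 and 4914 to 902 and 572 in TCCSUP, with the order again exchanged (difference 4.03 ± 0.40). SERPINH1, the chaperone of collagen folding, was shared instead and fell from 516 and 461 to 46.7 and 25.7 and from 1033 and 961 to 41.6 and 46.3 CPM (difference 0.75 ± 0.28, adjusted p = 0.0697). COL3A1, FN1, THBS1 and SERPINH1 were chosen once their values were known.

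Of 37 TGF-beta and YAP target genes and regulators, 16 fell (43.2%, background 17.2%) and 4 rose (10.8%, background 23.7%) in TCCSUP. In J82, 7 fell (18.9%, background 13.3%) and 12 rose (32.4%, background 17.4%). The difference passed for 15 higher in J82 (40.5%, background 7.57%) and 1 lower. ACTA2, the smooth muscle actin, fell from 82.8 and 84.7 to 2.02 and 2.24 CPM in TCCSUP and was at 0.19 and 0.4 and then 0.716 and 0.508 in J82 (difference 6.32 ± 0.53, adjusted p = 1.31e-06). VIM, the intermediate filament of mesenchymal cells, was the 1 lower: it fell from 278 and 313 to 168 and 131 CPM in J82 and rose from 3.96 and 3.75 to 14.5 and 14.8 in TCCSUP (difference -2.91 ± 0.38, adjusted p = 7.59e-05). Summed over 7 mesenchymal markers, CPM ran from 1770 to 2030 in J82 controls and from 4030 to 4510 with CM-1758, and from 7810 to 8690 and then from 2060 to 2490 in TCCSUP. FN1 carried the largest part of the sum in each of the 4 groups.

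**Figure D3:**
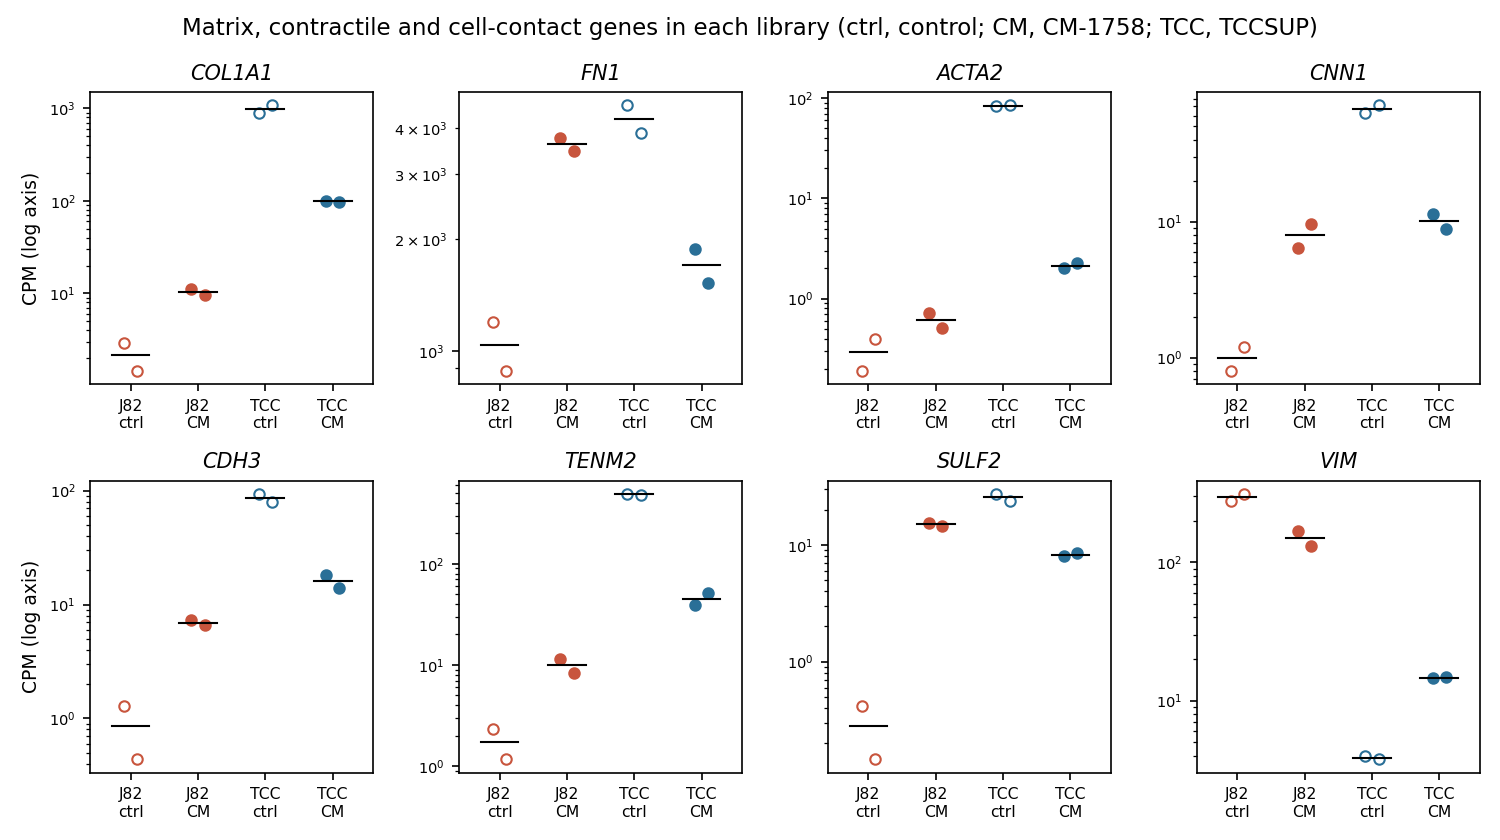
Points give the CPM of each library on a log axis for matrix, cytoskeletal and epithelial genes in J82 control, J82 CM-1758, TCCSUP control and TCCSUP CM-1758, 2 libraries per group. COL1A1 rises in J82 and falls in TCCSUP. The J82 controls lie below the TCCSUP controls for COL1A1 and above them for VIM.

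Epithelial junction genes rose in J82 more often than all genes did. Of 44 tested, 17 rose (38.6%, background 17.4%) and 5 fell (11.4%, background 13.3%) in J82, and 12 rose and 12 fell in TCCSUP (27.3% each, backgrounds 23.7% and 17.2%). The difference passed for 12 higher in J82 (27.3%, background 7.57%) and 3 lower (6.82%, background 5.02%). CDH3, or P-cadherin, rose from 1.29 and 0.436 to 7.34 and 6.57 CPM in J82 and fell from 93.8 and 80.0 to 18.3 and 14 in TCCSUP (difference 5.44 ± 0.42, adjusted p = 5.95e-07). CDH1, or E-cadherin, rose from 3.38 and 4.25 to 25.1 and 27.1 CPM in J82, to a level above all TCCSUP libraries, which stood at 20.6 and 13.6 and then 19.8 and 12.5 (difference 2.86 ± 0.32). CLDN1, a tight junction protein, rose from 42.5 and 23.1 to 216 and 173 and fell from 102 and 98.2 to 43.5 and 41.7 CPM (difference 3.80 ± 0.34).

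KRT18, a keratin of simple epithelia, was at 1556 and 2133 and then 2752 and 3058 CPM in J82, a change short of the threshold (adjusted p = 0.0322), and fell from 899.7 and 1038 to 188 and 138 in TCCSUP (difference 3.23 ± 0.33, adjusted p = 8.69e-06). DSP, which encodes desmoplakin of desmosomes, went the other way: it was at 50.5 and 23.3 and 66.9 and 39.5 CPM in J82, overlapping, and rose from 1.7 and 1.19 to 23.1 and 20.1 in TCCSUP (difference -3.38 ± 0.47). CDH1, CLDN1 and KRT18 were named after their values were seen. The 9 epithelial markers summed to 5940 to 8070 CPM in J82 controls and 6930 to 7860 with CM-1758, and to 1230 to 1360 and then 370 to 467 in TCCSUP. These sums hide members that moved apart. In J82 the mean of KRT7 went from 1710 to 485 CPM and that of KRT18 from 1840 to 2910. In TCCSUP the mean of KRT18 went from 969 to 163 CPM and that of KRT19 from 115 to 181. KRT5 was at 0 in J82, and GRHL2 had a mean of at most 0.232 CPM in every group.

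Of 21 urothelial genes tested, 9 rose (42.9%, background 17.4%) and 1 fell (4.76%, background 13.3%) in J82. In TCCSUP, 6 rose (28.6%, background 23.7%) and 4 fell (19%, background 17.2%), both near the background. Differences that passed numbered 7 higher in J82 (33.3%, background 7.57%) and 2 lower (9.52%, background 5.02%). CYP1A1, an enzyme of the aryl hydrocarbon pathway, rose in both, from 1.52 and 1.09 to 30.9 and 39.2 CPM in J82 and from 0.396 and 1.07 to 67.9 and 74.5 in TCCSUP (difference -1.84 ± 0.45, adjusted p = 0.00873). ELF3, an epithelial transcription factor, was at 1.06 and 0.145 and then 1.36 and 0.812 CPM in J82 and fell from 3.64 and 4.1 to 1.12 and 0.865 in TCCSUP (difference 2.81 ± 0.62, adjusted p = 0.00425). The differences of CYP1A1 and ELF3 did not pass the test under 8 and 5 alternatives.

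Neuronal and synaptic genes had the highest median log2 change of the lists in both lines. By the share of genes that rose in TCCSUP, metallothioneins were ahead (81.8% against 58.2%). Of 55 tested, 32 rose in J82 (background 17.4%) and 32 in TCCSUP (background 23.7%), 22 of them in both, while 1 fell in J82 and 2 in TCCSUP. The medians were 2.27 and 3.29. VGF, a secreted neuropeptide precursor, rose from 1.41 and 1.49 to 18.1 and 24.2 CPM in J82 and from 1.5 and 2.07 to 507 and 423 in TCCSUP (difference -4.15 ± 0.36, adjusted p = 1.96e-06), from like starting levels. STMN3, a regulator of microtubules, rose in J82 from 0.228 and 0.182 to 6.66 and 7.65 CPM and stood at 25.3 and 32.1 and 36.8 and 30.4 in TCCSUP (difference 4.87 ± 0.35, adjusted p = 3.5e-07).

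UCHL1, a neuronal deubiquitinase, rose from 2.77 and 3.02 to 21.6 and 30.2 CPM in J82 and fell from 294 and 325 to 154 and 140.2 in TCCSUP (difference 4.23 ± 0.27, adjusted p = 3.98e-07). SNAP25, a SNARE protein of vesicle fusion, was listed at 0 in both J82 controls and reached 3.01 and 2.5 CPM, at least 24.7-fold higher, while TCCSUP stood at 22.7 and 21.6 and 22.1 and 23.5. STMN3, UCHL1 and SNAP25 were all high in the TCCSUP controls. UCHL1 and SNAP25 were named after their values were seen.

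Metallothioneins rose mostly in TCCSUP. Of 11 metallothionein genes and regulators, 9 rose in TCCSUP and 3 rose and 1 fell in J82, with medians of 3.22 and 0.35 and a median difference of -2.06. In TCCSUP 81.8% rose (background 23.7%), and in J82 27.3% rose (background 17.4%). The difference passed for 2, both lower in J82. MT1X, which binds zinc and copper, rose from 24.8 and 28.6 to 64.3 and 133 CPM in J82 and from 2.53 and 4.29 to 111 and 88.2 in TCCSUP (difference -2.99 ± 0.41, adjusted p = 0.000109). MT2A was at 55.9 and 56.3 and then 50.5 and 78.1 CPM in J82 and rose from 14.9 and 13.5 to 74.5 and 61.4 in TCCSUP (difference -2.06 ± 0.29). The treated levels of both genes overlapped between the lines, and the controls did not. Metallothioneins are close copies of each other, so their counts are uncertain.

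Of 66 inflammatory genes of the NF-kB pathway, 10 rose and 5 fell in J82, and 23 rose and 10 fell in TCCSUP. Rises were at 15.2% of the list in J82 (background 17.4%) and 34.8% in TCCSUP (background 23.7%). Falls were at 7.58% in J82 (background 13.3%) and 15.2% in TCCSUP (background 17.2%). The difference passed for 3 higher in J82 and 5 lower, 12.1% in all and near the background of 12.6%. DUSP2, a phosphatase of MAP kinases, fell from 11.1 and 9.74 to 3.9 and 3.82 CPM in J82 and rose from 1.78 and 2.14 to 14 and 16.5 in TCCSUP (difference -4.39 ± 0.38, adjusted p = 1.82e-06). FOS, an immediate early gene named after its values were seen, was at 6.19 and 19.8 and then 10.3 and 13.3 CPM in J82 and rose from 1.42 and 1.42 to 19.9 and 15.7 in TCCSUP (difference -3.78 ± 0.61). PLAU, the urokinase, was at 116 and 74.1 and then 124 and 65.3 CPM in J82 and fell from 343 and 328 to 89.4 and 75.8 in TCCSUP (difference 2.02 ± 0.35).

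Genes of endoplasmic reticulum chaperones and the unfolded protein response fell in 11 of 25 cases in J82 (44%, background 13.3%) and 16 of 25 in TCCSUP (64%, background 17.2%), with 9 in both. HSP90B1, a chaperone, fell from 1712 and 1374 to 1145 and 686 CPM in J82 and from 2012 and 2011 to 481 and 427 in TCCSUP (difference 1.40 ± 0.29, adjusted p = 0.00326, lost under 6 alternatives). DDIT3, the stress factor CHOP, fell from 82.6 and 58.8 to 37.7 and 33.2 CPM in J82 and rose from 21.5 and 23.7 to 40.6 and 52.2 in TCCSUP (difference -2.04 ± 0.25, adjusted p = 3.63e-05). The direction of DDIT3 thus parted from that of the chaperones in TCCSUP.

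Cholesterol synthesis genes fell in 18 of 26 cases in J82 (69.2%, background 13.3%) and 10 of 26 in TCCSUP (38.5%, background 17.2%), 9 of them in both. Of 6 differences that passed, 5 were lower in J82 (19.2%, background 5.02%) and 1 was higher (3.85%, background 7.57%). LSS, the lanosterol synthase named after its values were seen, fell from 159.9 and 142 to 64.5 and 53.1 CPM in J82 and stood at 54 and 44.6 and 47.2 and 49.5 in TCCSUP (difference -1.33 ± 0.21, adjusted p = 0.000333). MVK, the mevalonate kinase, fell from 35.9 and 46.8 to 27.8 and 25.1 CPM in J82 and was at 11.5 and 12.8 and then 18.3 and 14.6 in TCCSUP (difference -1.08 ± 0.22, lost under 5 alternatives). TM7SF2, a sterol reductase, rose in both lines, from 11.8 and 10.8 to 20.7 and 18 and from 2.85 and 2.79 to 29.4 and 19.7 CPM (difference -2.34 ± 0.30).

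Of 41 MYC and ribosome biogenesis genes, 15 fell (36.6%, background 13.3%) and 1 rose in J82. In TCCSUP, 5 fell (12.2%, background 17.2%) and 6 rose (14.6%, background 23.7%). Only 3 differences passed, all lower in J82 (7.32%, background 5.02%). RRP9 and RRP12, both of ribosomal RNA processing, rose in TCCSUP, from 21.2 and 24.5 to 49.1 and 45.9 and from 42.2 and 48.2 to 77.7 and 72.6 CPM. In J82 they were at 52.8 and 68.7 and then 50.3 and 64.5 CPM and at 54.9 and 52.6 and then 48.5 and 48.3 CPM. The differences were -1.13 ± 0.24 and -0.89 ± 0.20 and did not pass the test under 6 and 9 alternatives.

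Cell cycle inhibitors and genes known to respond to deacetylase inhibitors rose in 13 of 28 cases in J82 (46.4%, background 17.4%) and 11 of 28 in TCCSUP (39.3%, background 23.7%), 6 of them in both. Those that fell numbered 1 (3.57%, background 13.3%) and 4 (14.3%, background 17.2%). CDKN1A, the p21 inhibitor, was among the shared rises, with log2 changes of 3.41 ± 0.27 in J82 and 2.21 ± 0.26 in TCCSUP. TXNIP, an inhibitor of thioredoxin, rose from 14.3 and 12 to 121 and 258 CPM in J82 and from 125 and 124 to 414 and 348 in TCCSUP, more in J82 and from a lower level (difference 2.24 ± 0.35, adjusted p = 0.000362). CRIP2, a LIM protein, rose from 3.15 and 2.69 to 28.1 and 32.5 CPM in J82, which brought it to the TCCSUP level of 33 and 27.1 in controls and 25.7 and 28.4 after treatment (difference 3.52 ± 0.33). KLF4, a transcription factor, was at 32.8 and 31.3 and then 24.1 and 24.6 CPM in J82 and rose from 10.8 and 7.62 to 27.7 and 27.1 in TCCSUP (difference -1.97 ± 0.22). TXNIP and CRIP2 were named after their values were seen.

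Genes for chromatin enzymes had median log2 changes of -0.044 in J82 and -0.065 in TCCSUP, which turned to 0.096 and 0.246 with library size alone. Of 38 tested, 7 rose (18.4%, background 17.4%) and 8 fell (21.1%, background 13.3%) in J82, and 5 rose (13.2%, background 23.7%) and 8 fell (21.1%, background 17.2%) in TCCSUP. Among the differences, 6 passed higher in J82 (15.8%, background 7.57%) and 1 lower. HDAC11, the smallest deacetylase, was at 27.6 and 30.5 and then 24.2 and 25 CPM in J82 and rose from 4.15 and 3.64 to 13.7 and 11.9 in TCCSUP (difference -1.95 ± 0.26, adjusted p = 9.75e-05). TET1, which oxidizes methylcytosine, was at 3.11 and 3.23 and then 4.44 and 4.57 CPM in J82 and fell from 21.7 and 16.1 to 7.6 and 8.46 in TCCSUP. Its difference of 1.74 ± 0.40 (adjusted p = 0.00661) did not pass under 10 alternatives.

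Of 35 genes of the BCL2 family and death receptors, 5 rose and 12 fell in J82, and 8 rose and 12 fell in TCCSUP. Falls were at 34.3% in each line (backgrounds 13.3% and 17.2%), while the rises were near or below the background, as were the differences that passed (11.4%, background 12.6%). BCL2L11, which encodes the death-promoting protein BIM, was at 15.2 and 10.3 and then 17.2 and 17.8 CPM in J82 and rose from 8.78 and 9 to 39.4 and 31.4 in TCCSUP (difference -1.54 ± 0.25, adjusted p = 0.000538). FAS, a death receptor, was at 4.82 and 3.34 and then 4.87 and 2.88 CPM in J82 and fell from 39.6 and 33.1 to 11 and 11.1 in TCCSUP (difference 1.64 ± 0.31, adjusted p = 0.00155).

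The regulators that the study names were compared last, by the RNA level of each gene itself. The study's results were other measures: activity inferred from target genes for FOXM1 and STAT3, and an enrichment among upregulated genes for IRF1. The values below are therefore no check of those results. FOXM1, a driver of mitotic genes, fell in both lines, from 64.5 and 53 to 14.4 and 8.97 CPM in J82 and from 38.6 and 42.9 to 3.67 and 5.15 in TCCSUP (difference 0.88 ± 0.42, interval from -0.01 to 1.77, adjusted p = 0.154). STAT3, a cytokine-activated factor, rose from 179 and 155 to 222 and 240.5 CPM in J82 and was at 108 and 114 and then 138 and 121 in TCCSUP, and its difference of 0.25 ± 0.19 had an interval from -0.15 to 0.65, within 1 of 0. The J82 rise of STAT3 was near the threshold (adjusted p = 0.00916) and did not pass under 8 alternatives. IRF1, an interferon-induced factor, was at 80.5 and 41.6 and then 42.9 and 25.4 CPM in J82 and 60.7 and 63.7 and then 51 and 44.8 in TCCSUP. Neither of its changes passed, and its difference of -0.46 ± 0.36 (adjusted p = 0.421) took the other sign without J82 control replicate 1.

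CD274, which encodes the immune checkpoint ligand PD-L1, rose in J82 from 88 and 74.1 to 160.4 and 138 CPM, a log2 change of 0.88 ± 0.15 (adjusted p = 0.000297). TCCSUP held 44.3 and 44.2 CPM in controls and 45.3 and 38.3 after treatment, an overlapping range with a change of -0.08 ± 0.15. The difference of 0.96 ± 0.22 passed (adjusted p = 0.00481) and had an interval from 0.50 to 1.42. It did not pass under 7 of the alternatives, library size alone among them, with the direction kept. The study reported higher PD-L1 after treatment by RT-qPCR and by flow cytometry, which are measures other than these counts.

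Most markers of other cell types were near 0 in the controls. Of 16 leukocyte markers, 10 were at 0 in both J82 controls and 11 in both TCCSUP controls. With CM-1758, 7 were at 0 in J82 and 4 in TCCSUP. Their summed level stayed between 12.6 and 73.1 CPM, most of it CD68 and CD14. In TCCSUP the mean of PTPRC went from 9.58 to 1.12 CPM and that of CSF1R from 0.545 to 9.7. Of the 8 left by the count filter, 4 rose in TCCSUP (50%, background 23.7%) and 1 fell (12.5%, background 17.2%). CD3D and CD33 had means of at most 0.0677 CPM outside treated TCCSUP, where they reached 2.64 and 1.27. The filter can keep such genes through the group where they are high, which favours rises. The share of 50% is therefore a description and not a result about the markers. Over 10 endothelial markers the sum was 11.9 to 17.9 CPM in J82 and fell from 195 to 229 CPM in TCCSUP controls to 24 to 25.8 with CM-1758. TEK, an angiopoietin receptor, made up most of the TCCSUP sum, at a mean of 209 and then 13.3 CPM. KDR was the largest member in J82, at a mean of 9.09 and then 10.4 CPM. PECAM1, CDH5 and CLDN5 had means of at most 0.939 CPM.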

How the data were processed

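RNA-seq counts per gene symbol were used as the authors deposited them, for 35993 symbols in 16 libraries of 4 bladder cancer lines, from stranded, ribosome-depleted total RNA. HISAT2, StringTie and GRCh37 are named in the submitters' processing notes, with no role. The counting tool and annotation were not given in the sources used here. Groups came from the labels. Genes were filtered with filterByExpr over 8 groups, which left 21297, and TMM-scaled. Responses and their difference were tested with edgeR 4.0.16 in R 4.3.3 (quasi-likelihood, 1 model of all 16 libraries, 8 residual degrees of freedom, Benjamini-Hochberg adjustment over all tested genes). Those p-values measure the spread between independent experiments. A standard error is the log2 value divided by the square root of F, and intervals are 95%. CPM are TMM-scaled, with a prior count of 2 on the log2 scale. A count floor of 3 was used for silent genes. The code was tested on simulated data.

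Genes were named by rule: protein-coding, at least 1 CPM in a group and more than 3 counts in a library of each group. Among these were taken the 6 widest called differences each way, up to 5 opposite genes each way, 6 shared genes each way, the highest and lowest passing difference of each list, IRF1, STAT3, FOXM1 and CD274, and on-off genes. Others are said to be named after their values were seen. A gene that the rule gives is not reported here. The members and lists were chosen with earlier results of these data known. Promoter windows came from RefSeq tables of GRCh38.p14 by symbol (34000 current, 744 through synonyms). Alternatives were RLE, library size alone, 2 filters, DESeq2 1.42.0, the 8 libraries alone, a replicate block, small noncoding RNA genes left out, thinning, 2 thresholds, each library left out, and limma-trend (limma 3.58.1), added after seeing the data.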

Additional observations from a re-analysis of the deposited data

Results flagged for a closer look

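A test of the difference between the lines brought forward the results that follow, each as the log2 change with CM-1758 in J82 minus that in TCCSUP, so that a positive value means the higher response in J82. Groups of 2 libraries are too small to test for an outlying sample, and no explanation of the differences was tested. The difference was called for 648 genes with the higher and 542 with the lower response in J82.

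Among the widest differences toward J82, SULF2 had 7.35, PTPRQ 7.09, CA5B 7.09, MAMDC2 6.96 and FSTL5 6.5. Toward TCCSUP, TEX15 had -7.36, SPATA13 -6.91, OGDHL -6.87, PCDHAC2 -6.62, ADGRV1 -6.5 and SEMA4D -6.36. Among genes called in opposite directions, UGT1A1 had 6.06, TENM2 5.94, ITGA11 5.73, CNN1 5.72 and NEGR1 4.93, and on the other side H19 had -8.01 and H2BP2 -5.62. WT1 (-8.94) and SNAP25 (9.19) had controls at 0 in TCCSUP and in J82 respectively, so their fitted values depend on the model and are no bounds.

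In the interferon list IFIT2 had 2.3, SP110 -2.63 and ISG15 -2.22. Antigen presentation and checkpoint genes gave 1.13 for B2M, -3.93 for HLA-F and 0.96 for CD274. Replication genes were lower in J82, with -1.15 for MCM2, -0.92 for MCM5 and -0.71 for RFC4. Mitosis genes were higher, with 2.12 for DLGAP5, 1.5 for TOP2A, 1.3 for CENPF and 1.1 for TTK.

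Matrix genes with the higher response in J82 were COL1A1 (5.59), COL3A1 (5.34), THBS1 (4.03) and FN1 (3.1), and COL5A1 had -4.22. Of the mesenchymal genes ACTA2 had 6.32 and VIM -2.91. The epithelial genes CDH3, CLDN1, KRT18 and CDH1 had 5.44, 3.8, 3.23 and 2.86, while DSP had -3.38. The urothelial genes ELF3 and CYP1A1 had 2.81 and -1.84.

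Neuronal genes ran from 4.87 for STMN3 and 4.23 for UCHL1 to -4.15 for VGF. The inflammatory genes PLAU, FOS and DUSP2 had 2.02, -3.78 and -4.39, and the metallothioneins MT2A and MT1X had -2.06 and -2.99. Of 6 cholesterol synthesis genes whose difference passed, 5 were lower in J82, among them -1.08 for MVK, -1.33 for LSS and -2.34 for TM7SF2. HSP90B1 and DDIT3 of the endoplasmic reticulum stress list had 1.4 and -2.04, and RRP12 and RRP9 of ribosome biogenesis had -0.89 and -1.13.

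CRIP2, TXNIP and KLF4 of the deacetylase inhibitor responders had 3.52, 2.24 and -1.97. The chromatin enzymes TET1 and HDAC11 had 1.74 and -1.95, and the death genes FAS and BCL2L11 had 1.64 and -1.54.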

How the results depend on the processing

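With RLE normalization, scaling by library size alone, no filter, DESeq2, the 8 libraries alone, small noncoding RNA genes left out or thinned libraries, each count of called genes was within 1.5 times the value in the report, and 984 to 1184 of the 1190 genes with a called difference were called again. With at least 10 counts in each of the 8 libraries, which removes genes silent in 1 group, 536 of them were called again. That setting gave 505 higher and 166 lower in J82, 476 and 451 in TCCSUP, differences of 406 and 164, 183 shared higher, and 12 and 0 opposite genes. With a log2 limit of 1 and an adjusted p of 0.05 the counts were 3726 and 1570 in J82, 5117 and 2466 in TCCSUP, 1833 and 1450 for the difference, 2344 and 831 shared, and 152 and 47 opposite. With an adjusted p of 0.01 and no log2 limit they were 3710 and 2825, 5040 and 3673, 1612 and 1070, 2209 and 1733, and 231 and 69. With limma-trend, chosen after seeing the data, 1333 genes had a lower response in J82. Among the 529 genes called higher in TCCSUP with at most 3 counts in every J82 library the difference was called for 445. The choice of these genes favours that result.

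Leaving out each library in turn left an arm of 1, assumed to vary like the others. The differences then numbered 536 to 753 and 403 to 564, and 914 to 1033 of the 1190 were called again. J82 gave 1346 to 1881 higher and 159 (without treated replicate 3) to 331 lower. TCCSUP gave 2173 to 3048 and 599 to 724, shared genes 833 to 1057 and 83 to 155, and opposite genes 20 to 36 and 3 to 6. Both 20 and 6 came without J82 control replicate 3, and without J82 treated replicate 1 the genes lower in J82 and higher in TCCSUP numbered 5. The fewest shared lower genes came without J82 treated replicate 3. Of 128 values of single genes, 4 to 16 no longer passed the test, against 17 with the 8 libraries alone and at most 6 with any other setting. The IRF1 difference ran from -0.86 to 0.094, the latter without J82 control replicate 1. The CD274 change in TCCSUP was 0.23 with library size alone, 0.035 with at least 10 counts, and -0.22 to 0.034 without single libraries, the extremes without treated replicates 1 and 2. With library size alone the TCCSUP median also turned positive for the BCL2 (0.222), chromatin (0.246) and epithelial junction (0.257) lists, and the J82 chromatin median moved to 0.096. The cause of these moves was not tested.

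With the replicate number as a block the difference was called for 673 and 480 genes, 1065 of them among the 1190. Deviations of same-numbered samples correlated with r of 0.534 in J82 and 0.0768 in TCCSUP over 11375 genes, so same-numbered J82 samples deviated together and TCCSUP samples barely did. The labels do not say what the number marks, and no pairing was assumed. With 2 experiments per group, depth of 22506431 to 32537104 counts leaves genes of a few counts without a usable interval.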
